A study of Mus musculus with 2 samples.

Results

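The 9 miRNA genes described here are known from liver, gut, pancreas and kidney: Mir122, Mir192, Mir194-1, Mir194-2, Mir215, Mir216a, Mir216b, Mir217 and Mir375. They were chosen by the organs they are known from, with earlier results of these data known, and all 9 had a line among the 1973 miRNA genes of the count files. The files hold small RNA sequencing (RNA below 30 bases) of the facial prominences, the buds from which the jaws, palate and nose grow, in mouse embryos of the B6NCrl strain at day 13.5. The labels name no treatment and give a single healthy group with 2 biological replicates, each of pooled males and females; how many embryos a pool held is not given in the sources used here. No liver, gut, pancreas or kidney sample was analysed here, and the values describe each gene's level in face tissue and its spread over 2 libraries.

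A miRNA is cut from a hairpin RNA into short strands of about the same length, and the seed, the bases near its 5′ end, chooses the messenger RNAs that it represses. Mir122 is the leading miRNA of hepatocytes. Mir192 and Mir194-2 are made from a shared locus, as are Mir215 and Mir194-1, and these genes are known from gut epithelium, liver and kidney. Mir216a, Mir216b and Mir217 are known from acinar cells of the pancreas, and Mir375 from the islets, where it restrains insulin release, but also from the pituitary and other endocrine cells and from the lining of the mouth and gullet.

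The mature sequences decide which of these genes a read can be told apart by, and so they are given before the counts. RefSeq entries (GRCm38.p6) were read for 8 of the 9 genes, all but Mir122, with 15 mature entries of 21 to 23 bases. Mir122 and miR-375-3p are named here without a sequence. In the lines below capitals mark the seed, bases 2 to 8 counted from the 5′ end.
miR-192-5p: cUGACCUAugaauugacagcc
miR-215-5p: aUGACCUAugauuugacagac
miR-194-5p: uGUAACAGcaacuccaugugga
miR-194-1-3p: cCAGUGGAgcugcuguuacuuc
miR-194-2-3p: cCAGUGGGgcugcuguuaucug
miR-216a-5p: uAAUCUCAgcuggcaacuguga
miR-216b-5p: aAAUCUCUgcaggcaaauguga
miR-217-5p: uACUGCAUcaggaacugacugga
miR-192-5p and miR-215-5p share their seed and differ at 3 of 21 bases, C1A, A12U and C20A (miR-192-5p first, counted from its 5′ end). miR-216a-5p and miR-216b-5p differ at 4 of 22 bases, U1A, A8U, U11A and C17A, so the last base of the seed differs. The table lists no further mature strand with the seed of miR-192-5p and miR-215-5p, and none with that of miR-216a-5p, miR-216b-5p or miR-217-5p.

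miR-194-5p is the same 22 bases in Mir194-1 and Mir194-2, and it was the only mature strand of the 8 genes that the table lists for more than 1 gene. The hairpins around it differ, as the pair below shows, with miR-194-5p in capitals.
Mir194-1 hairpin: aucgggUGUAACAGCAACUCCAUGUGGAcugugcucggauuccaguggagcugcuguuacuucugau
Mir194-2 hairpin: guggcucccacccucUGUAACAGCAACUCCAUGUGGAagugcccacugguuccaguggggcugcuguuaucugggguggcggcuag
A read of exactly the capital bases has at least 2 places in the genome. Reads with several places stand in a class of their own in the files (30.7% of reads in replicate 1 and 31.0% in replicate 2) and are in no gene's count. The counts of Mir194-1 and Mir194-2 are therefore reads that could be placed by bases outside the shared stretch, such as those of miR-194-1-3p and miR-194-2-3p, which differ at 4 of 22 bases, and they understate both genes by an unknown amount.
The counts are per gene and do not say which mature strand of a hairpin gave the reads. For Mir375, the gene with the most counts here, the hairpin is given with miR-375-5p in capitals and miR-375-3p not marked.
Mir375 hairpin: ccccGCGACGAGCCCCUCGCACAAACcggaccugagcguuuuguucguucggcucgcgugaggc

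Replicate 1 held 4562135 same-strand counts on miRNA genes and replicate 2 held 5771249. A level is given in CPM, the reads of a gene among each 1000000 of these counts. Each read stands for 1 strand of nearly equal length in each gene, so genes were compared without division by length. A single count was worth 0.219 CPM in replicate 1 and 0.173 CPM in replicate 2, and a count of 0 would allow up to 3 counts, 0.658 and 0.520 CPM. For scale, the 7 epithelial genes of the list summed to 63539 and 63309 CPM in replicates 1 and 2. The 6 genes of mesenchyme and cartilage summed to 49446 and 51442 CPM, and none of either list was at 0. These lists were chosen with earlier results of these data known, so the sums do not test the tissue label.

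Mir375 stood apart from the other genes of the liver, gut, pancreas and kidney set. It held 78.5% of the set's counts in each library, with 3397 of 4328 counts in replicate 1 and 5825 of 7420 in replicate 2. Mir375 exceeded the other 8 genes summed by 3.65-fold in each library, with a mean ratio of 3.65 ± 0.00231 (SD, n = 2). That SD gives only the closeness of 2 values and leaves out counting error, so it is no measure of precision. Reads of exactly miR-194-5p are not in these sums, and adding them would lower both the share and the ratio of Mir375. The set as a whole came to 949 CPM in replicate 1 and 1286 CPM in replicate 2, or 0.0949% (95% Wilson interval 0.0921 to 0.0977) and 0.129% (0.126 to 0.132) of the counts. Without Mir375 it came to 204 and 276 CPM, or 0.0204% and 0.0276%.

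By eye, after the values were seen, the set was put in 3 tiers. Mir375 was at 877 ± 187 CPM. Mir192, Mir122 and Mir194-2 lay between 56.7 and 89.9 CPM on average, and Mir217, Mir215, Mir216b, Mir216a and Mir194-1 lay between 0.940 and 6.08 CPM. At least 10 counts in both libraries were reached by 5 of the 9 genes, Mir375, Mir192, Mir122, Mir194-2 and Mir217, while 18.2% of all 1973 genes reached that minimum. None of the 9 was at 0 in a library.

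**Figure D1:**
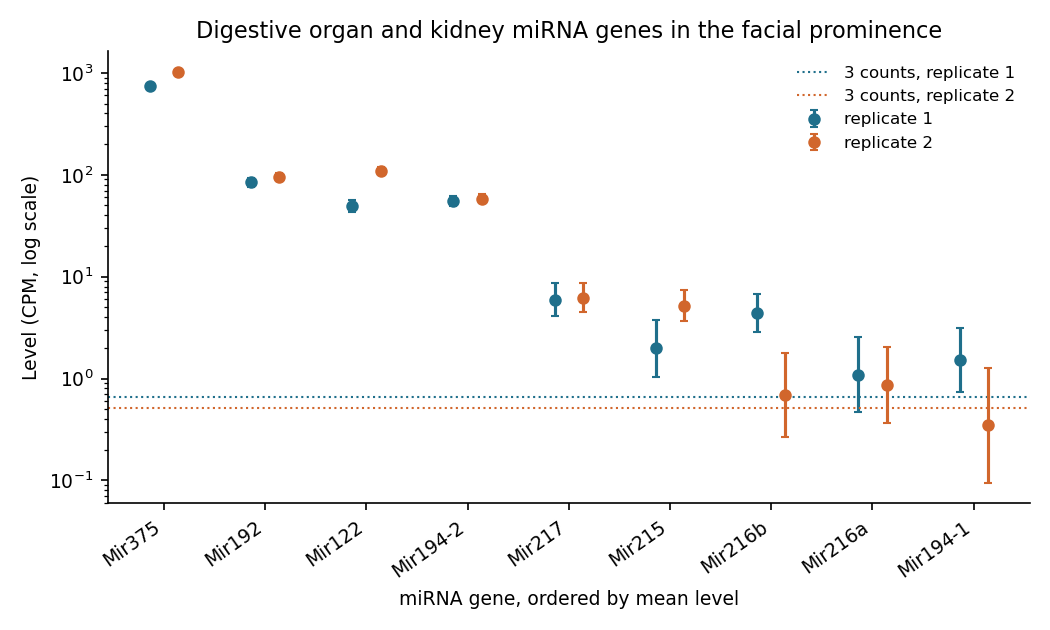
Level in CPM (log scale) of each of the 9 genes in replicates 1 and 2, with 95% Wilson intervals for counting error as bars and the level of 3 counts in each library as dotted lines. Mir375 sits at 745 and 1009 CPM, Mir192, Mir122 and Mir194-2 lie between 49.5 and 109 CPM, and Mir216b, Mir216a and Mir194-1 come near the dotted lines in replicate 2.

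Mir375, the islet and endocrine gene, had 3397 counts, 745 CPM (Wilson interval 720 to 770), in replicate 1 and 5825 counts, 1009 CPM (984 to 1036), in replicate 2. It was the 103rd most abundant miRNA gene in the first and the 93rd in the second. By mean level 259 of the 360 genes with at least 10 counts in both libraries (71.9%) lay below it, and the median of those 360 genes was 113 CPM. Mir375 lies between genes on the minus strand of chromosome 1 (GRCm38, 74900658 to 74900721, identifier ENSMUSG00000065616). The files carry an older version of that identifier than the annotation used for its position, so the interval that was counted may differ slightly.

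**Figure D2:**
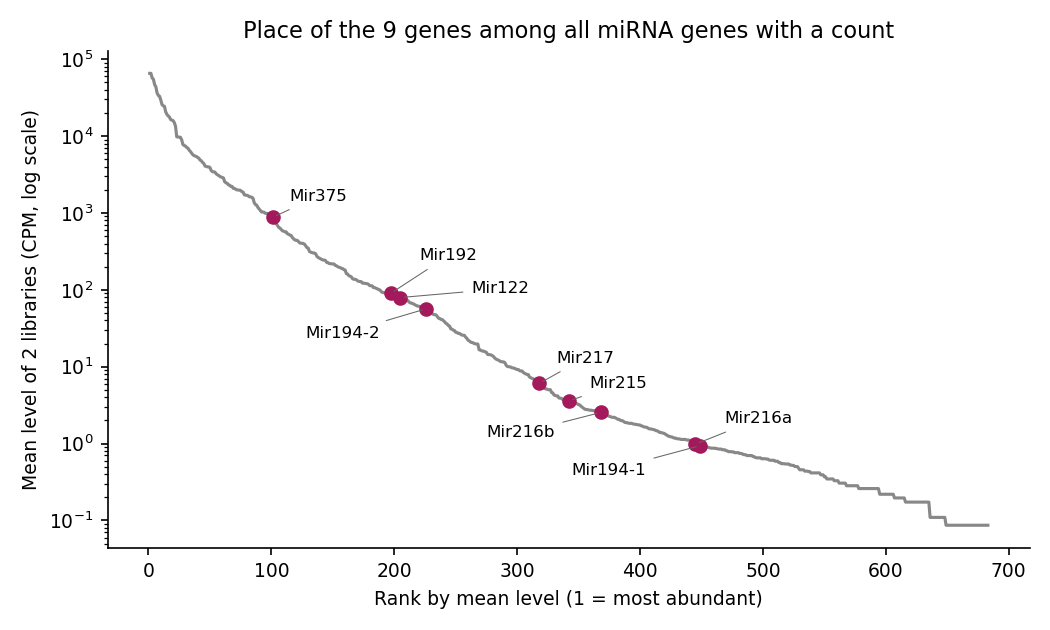
Mean level of 2 libraries in CPM (log scale) against rank, for the 683 miRNA genes with a count in at least 1 library, with the 9 genes as filled points. Mir375 is at rank 101, Mir192, Mir122 and Mir194-2 are at ranks 197, 205 and 226, and the other 5 genes are at ranks 318 to 449.

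Mir192 and Mir194-2, of gut, liver and kidney, were near each other in level and steady between the libraries. Mir192 was at 84.4 CPM (385 counts) in replicate 1 and at 95.5 CPM (551 counts) in replicate 2, with a mean of 89.9 ± 7.84 CPM. Mir194-2 had 252 counts (55.2 CPM) and 336 (58.2 CPM), a mean of 56.7 ± 2.11 CPM. Mir192 was the higher of the pair in both libraries, by 1.53-fold and 1.64-fold; these ratios leave out reads of exactly miR-194-5p. The pair lies 115 bases apart on the plus strand of chromosome 19 (GRCm38), Mir194-2 at 6264643 to 6264728 and Mir192 at 6264844 to 6264932, between annotated genes.

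The sister locus, with Mir194-1 and Mir215, had few uniquely placed counts, and these also leave out reads of exactly miR-194-5p. Mir215, which shares its seed with Mir192, had 9 counts (1.97 CPM) in replicate 1 and 30 (5.20 CPM) in replicate 2. Mir194-1 had 7 counts (1.53 CPM) in replicate 1 and 2 counts in replicate 2, fewer than the 3 that a count of 0 would allow. The locus of Mir192 held 39.8-fold more counts than that of Mir215 in replicate 1 and 27.7-fold more in replicate 2. Mir194-1 and Mir215 lie 195 bases apart on the plus strand of chromosome 1 (GRCm38), at 185313319 to 185313385 and 185313581 to 185313692, opposite an intron of Iars2. Mir215 overlaps an exon and Mir194-1 an intron of the noncoding gene 2010103J01Rik, on their own strand.

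The pancreatic genes were low. Mir217 had 27 counts (5.92 CPM, Wilson interval 4.07 to 8.61) in replicate 1 and 36 (6.24 CPM, 4.51 to 8.64) in replicate 2. Mir216a had 5 counts in each library, 1.10 and 0.866 CPM. Mir216b had 20 counts (4.38 CPM) in replicate 1 and 4 (0.693 CPM) in replicate 2, so that it was near Mir217 in the first and near Mir216a in the second. All 3 are on the plus strand of chromosome 11 (GRCm38), Mir216b at 28746191 to 28746276, Mir216a at 28757012 to 28757083 and Mir217 at 28763728 to 28763835. Mir216a and Mir217 lie in an intron of the noncoding gene Gm12082. Mir216c, which lies opposite Mir216b, has no line in the files, and the opposite strand of Mir216b had 0 counts in both libraries, where up to 3 counts are allowed by a count of 0.

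In the order of mean levels several neighbours could not be separated. Mir122 was below Mir192 and Mir194-2 in replicate 1 and above both in replicate 2. Mir217 was above Mir215 in both libraries, but their Wilson intervals overlapped in replicate 2 (4.51 to 8.64 CPM against 3.64 to 7.42). Mir215 and Mir216b changed places between the libraries, as did Mir216b and Mir216a, and Mir216a and Mir194-1. Mir375 was above Mir192, and Mir194-2 above Mir217, in both libraries with no overlap of the values.

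Mir122, the hepatocyte gene, differed most between the libraries among the genes of the set with at least 10 counts in both. Replicate 1 had 226 counts of it, 49.5 CPM (Wilson interval 43.5 to 56.4), and replicate 2 had 631 counts, 109 CPM (101 to 118). The values did not overlap, and the mean was 79.4 ± 42.3 CPM (SD, n = 2). In tissue labelled as face, this gene known from liver had a higher mean than 155 of the 360 genes that reached the minimum (43.1%). Mir122 lies on the plus strand of chromosome 18 (GRCm38, 65248861 to 65248926), in an exon of the noncoding gene AC157910.3.

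The difference between the 2 libraries was tested gene by gene with an exact binomial test against counting error, after TMM scaling and with Benjamini-Hochberg adjustment over the 360 genes. The test compares these libraries and says nothing of a condition. Of the 5 genes tested here, Mir122 and Mir375 passed and 3 did not, while 55.0% of all tested genes passed, so that passing was common in this pair of libraries. Both genes were higher in replicate 2, as were 27.8% of all tested genes by the same test. Mir122 was 2.21-fold higher in replicate 2 (log2 ratio 1.14, adjusted p = 3.82e-26, exact binomial test), the 12th largest ratio in size among the 360. Mir375 was 1.35-fold higher (log2 ratio 0.44, adjusted p = 4.55e-45, exact binomial test), the 87th largest, against a median size of the log2 ratio of 0.24 over all tested genes.

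Mir192 (log2 ratio 0.18, adjusted p = 0.108, exact binomial test), Mir194-2 (0.08, adjusted p = 0.641) and Mir217 (0.08, adjusted p = 0.946) did not pass. The other 4 genes fell under the minimum and were not part of that test. Their counts moved in both directions, with Mir215 higher in replicate 2 and Mir216b and Mir194-1 higher in replicate 1.

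**Figure D3:**
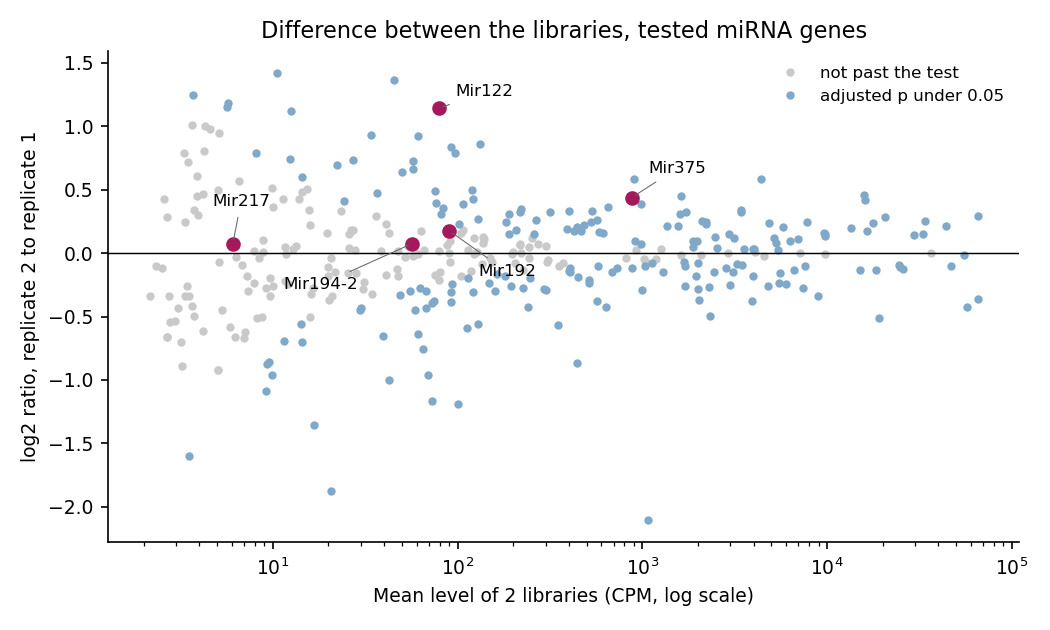
Log2 ratio of replicate 2 to replicate 1 against mean level in CPM (log scale) for the 360 tested genes, coloured by whether the adjusted p of the exact binomial test was under 0.05, with the 5 tested genes of the set named. Mir122 stands at 1.14 and Mir375 at 0.44, and Mir192, Mir194-2 and Mir217 lie between 0.08 and 0.18.

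Genes of other tissues were in part also higher in replicate 2, as were 27.8% of all tested genes. All 3 genes of heart and slow muscle passed in that direction, Mir208a (3.51 and 7.97 CPM in replicates 1 and 2), Mir208b (39.0 and 60.6 CPM) and Mir499 (5.92 and 10.2 CPM). Muscle genes outside that list did not share the direction. Mir206, more abundant than any of the list, passed toward replicate 1 (570 and 314 CPM, log2 ratio -0.86). Mir133b did not pass (13.2 and 11.1 CPM). Of the 3 red blood cell genes, Mir144 was higher in replicate 2, at 25.2 and 64.8 CPM, with a log2 ratio of 1.36 against the 1.14 of Mir122. Mir451a was also higher there, at 65.8 and 86.3 CPM, while Mir486 did not pass (10.3 and 9.01 CPM). The red blood cell list summed to 101 and 160 CPM and the heart list to 48.4 and 78.8 CPM, and no gene of either was at 0. Of the 4 white blood cell genes, 1 was higher in replicate 2, 1 higher in replicate 1 and 2 did not pass, with sums of 569 and 562 CPM. The part of blood or of other organs' tissue in the Mir122 difference was not tested.

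Beside Mir375, 5 of the 7 epithelial genes were higher in replicate 2, at log2 ratios up to 0.59, as were 27.8% of all tested genes. The other 2 were higher in replicate 1, Mir203 (22575 and 15805 CPM, log2 ratio -0.51) and Mir205 (15716 and 14330 CPM, -0.13). The list as a whole summed to 63539 and 63309 CPM. The 4 endocrine genes, which share the islet or pituitary with Mir375, summed to 104 and 136 CPM, below Mir375 alone. Mir7b (23.2 and 44.4 CPM) and Mir184 (11.4 and 17.3 CPM) were higher in replicate 2, and Mir7-1 (59.6 and 67.4 CPM) and Mir7-2 (9.64 and 6.76 CPM) did not pass. Mir7-1 and Mir7-2 encode the same mature miRNA, so their counts leave out reads with several places. All 3 genes of sensory epithelium were higher in replicate 2, at log2 ratios from 0.13 to 0.33, as were 27.8% of all tested genes. Of these 3, only Mir96 (0.33) exceeded the median size of the log2 ratio over all tested genes, 0.24. The part of these cell types in the level of Mir375 was not tested. In bulk tissue, fewer cells of a type and less RNA per cell cannot be told apart.

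**Figure D4:**
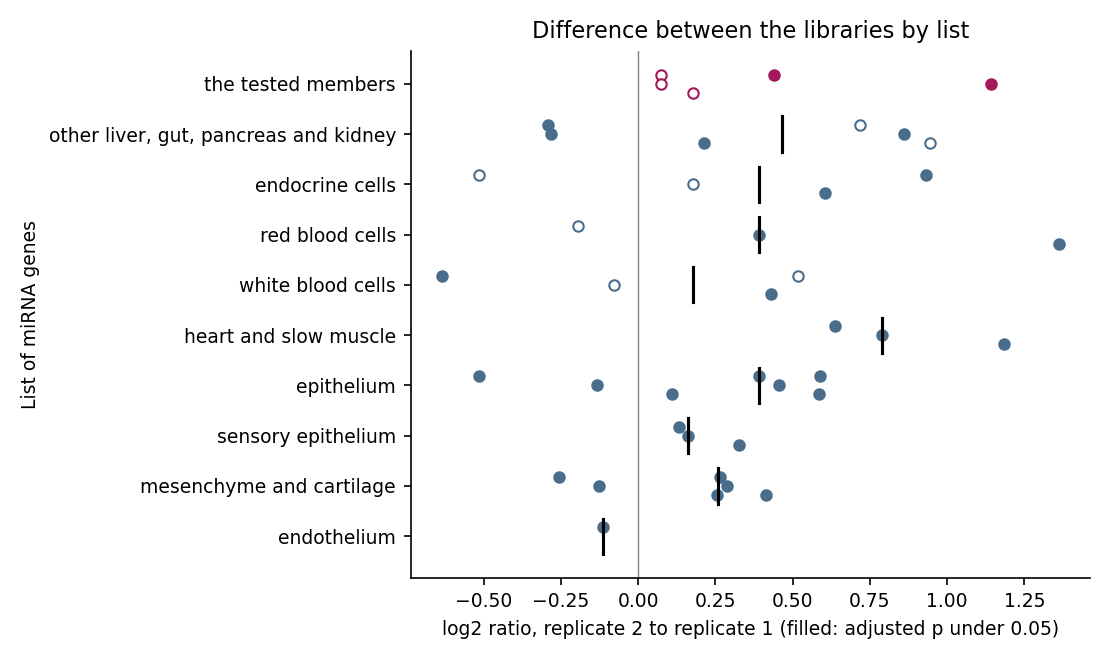
Log2 ratio of replicate 2 to replicate 1 for the tested genes of the set and of 9 other lists, 1 point per gene, filled where the adjusted p was under 0.05, with a bar at the median of each of the other lists. The heart and slow muscle genes lie at 0.64 to 1.18, and Mir144 of the red blood cell list lies furthest to the right, at 1.36.

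Further genes known from the same organs had mean levels from 3.48 to 1563 CPM. Of 7 such genes 6 had a line in the files, and all 6 had at least 10 counts in both libraries. Mir148a, of pancreas and liver, stood at 1563 ± 162 CPM and Mir483, from an intron of Igf2, at 991 ± 141 CPM, both above Mir375 on average. Mir31 (295 ± 40.6 CPM) and Mir204 (132 ± 53.9 CPM), both of them also known from tissues outside the digestive tract, lay between Mir375 and Mir192. Whether any of the 6 genes, Mir148a and Mir483 included, is particular to those organs was not tested. Mir147 (3.51 and 6.76 CPM in replicates 1 and 2) and Mir802, of liver, gut and islets (2.63 and 4.33 CPM), were at the level of Mir217 and Mir215. In that list 2 genes were higher in replicate 2, 2 higher in replicate 1 and 2 did not pass, while 55.0% of all tested genes passed. The median log2 ratio was 0.47, against -0.01 over all tested genes. That median falls between Mir148a (0.21) and Mir802 (0.72), which had 12 and 25 counts and did not pass. With the calls evenly split, the median does not show a shift of the list.

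These values put a size on the signal that genes known from other organs gave in a face sample. The low tier of Mir217, Mir216a, Mir216b, Mir215 and Mir194-1 summed to 68 counts in replicate 1 and 77 in replicate 2, or 14.9 and 13.3 CPM. The middle tier of Mir192, Mir194-2 and Mir122 summed to 189 and 263 CPM. By the same measure the heart genes Mir208a and Mir499 were at 5.74 ± 3.16 and 8.07 ± 3.04 CPM, near Mir217. Mir208b (49.8 ± 15.3 CPM), Mir451a (76.0 ± 14.5 CPM) and Mir144 (45.0 ± 28.0 CPM) were near the middle tier. Mir486, also of the red blood cell list, was lower at 9.66 ± 0.914 CPM, and the white blood cell genes had means from 9.86 to 373 CPM. Whether the counts of blood and muscle genes came from cells within the face was not tested. Mir375 exceeded Mir192, the highest of the middle tier by mean level, by 8.82-fold in replicate 1 and 10.6-fold in replicate 2.

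The genes nearest in level were named by distance in log2 CPM over the 2 libraries, which reflects level far more than pattern. Nearest to Mir375 were Mir200a (724 and 1085 CPM, distance 0.11) and Mir141 (853 and 1120 CPM, distance 0.25), both of the epithelial list, and Mir542 (885 and 945 CPM, distance 0.27). Nearest to Mir192 were Mir338, Mir331 and Mir452, at distances of 0.03 to 0.09. Mir122 had no neighbour as close, with Mir574, Mir190a and Mir383 at 0.42 to 0.50.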

How the data were processed

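Small RNA of 2 libraries of 1 group was measured. The deposited values are whole-number read counts per miRNA gene that the authors made on mm10 with the M4 release of GENCODE, as the deposited description files say. Neither the aligner nor the trimming is named (not given in the sources used here). Without a header, the columns were read from their values as counts without regard to strand, same-strand counts and opposite-strand counts (the first equalled the sum of the others with 0 exceptions). The same-strand column was used. Read classes of no gene, 55.9% of reads in each library, stayed out of totals. Names and positions came from GENCODE M21 on GRCm38 (1894 of 1973 identifiers matched), sequences from RefSeq.

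Genes with at least 10 counts in both libraries were tested: edgeR 4.0.16 TMM scaling, an exact binomial test (two-sided) given each gene's summed counts, Benjamini-Hochberg at 0.05 over all 360 genes (scipy 1.17.1, R 4.3.3), checked on simulated data. The simulated counts held only counting error and set changes, so that check did not cover variation between replicates. With a single group no quasi-likelihood fit was possible. Intervals are 95% Wilson; reads copied by PCR are not separate molecules, so these bounds and the p-values cover counting error only. SDs are over 2 libraries. Named genes were the 9 genes, genes of the lists, and for Mir375, Mir122 and Mir192 the 3 tested genes nearest in log2 CPM. Mir206 and Mir133b, outside the lists, were added after the values were seen. The members and lists were chosen with earlier results of these data known. Alternatives were the column without regard to strand, other totals, DESeq2 1.42.0 size factors, minimums of 1 and 100 counts, and leaving out each library.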

Additional observations from a re-analysis of the deposited data

Results flagged for a closer look

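Counts on the opposite strand were outside the comparisons. At Mir194-1, replicate 2 had 5 opposite-strand counts, more than the 3 that a count of 0 allows, beside 2 counts on the gene's own strand, and replicate 1 had 0. The strand opposite Mir194-1 is that of Iars2, in an intron. The other 8 genes of the set had 0 opposite-strand counts in both libraries.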

How the results depend on the processing

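Depth limited the low tier, where Mir216a had 5 counts in each library and Mir194-1 had 2 in replicate 2. Reads of exactly miR-194-5p are uncounted at any depth, because they have several places in the genome. Mir122 and Mir375 passed the binomial test under every alternative run for them (DESeq2 size factors, total counts, minimums of 1 and 100 counts, and the column without regard to strand), and none of the 24 recomputed library ratios of the 5 tested genes changed sign. Dividing by all reads of the file instead of gene counts gave a summed level of 493 CPM instead of 1117. With a minimum of 1 count, 9 genes of the set passed in place of 5, as did 28.0% of all genes. Between the libraries 4 of the 9 were then called in place of 2, beside 36.6% of the 552 genes tested at that minimum: Mir215 (log2 ratio 1.42, adjusted p = 0.0268) and Mir216b (-2.64, adjusted p = 5.08e-04, exact binomial test) were added. The ratio of Mir375 to the rest was 3.64 in the column without regard to strand and 4.84 without Mir194-1 and Mir194-2; leaving genes out can only raise this ratio, so the latter says nothing of the uncounted reads. No paired analysis was possible because the labels give a single group.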
